A study of Drosophila melanogaster with 3 samples.

Results

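Neuropeptide and peptide hormone receptors of the G protein-coupled type were described in the head transcriptome of wild-type *Drosophila melanogaster*. The 38 genes were listed by symbol, from textbook knowledge of which fly receptors bind peptides, and all 38 were matched by FlyBase ID to 1 of the 17558 genes of the count table. The material was heads of untreated adults of the wild-type genotype, which the series text calls CantonS, raised at 25°C, and polyadenylated RNA was sequenced with a stranded kit. All 3 libraries belong to 1 group and carry replicate numbers 1 to 3. The study used adult males and females, but the age, the sexes in each library and the number of heads per library were not given in the sources used here, and no mutant or treated library was analysed, so the comparisons are between genes and between replicates. Nothing in the labels says whether the replicates came from separate cultures, so a p-value measures only the spread between these libraries, which may be technical.

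Neuropeptides are cut from larger precursor proteins, packed in dense-core vesicles and released to act over long distances. Nearly all of them bind seven-helix receptors that signal through heterotrimeric G proteins, so a cell that carries only a few receptor molecules can still respond strongly. In the fly head such receptors set feeding, sleep, clock output, mating and stress responses, and some also act outside neurons, as the adipokinetic hormone receptor does in the fat body. In whole heads, fewer cells of a type and less RNA per cell cannot be told apart.

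The libraries held 8332583, 7349123 and 6299265 counts in replicates 1, 2 and 3, so that 1 count was worth 0.120 to 0.159 CPM (counts scaled to a library of 1e+06). Markers of neurons, photoreceptors, glia, muscle and haemocytes were detected at 4 of 4 each and those of fat body at 3 of 3 matched. The 4 male accessory gland markers were at 0 counts in every library. Of the other lists, the ovary genes nos and bam were at 0 and osk had 1 count in all, the testis genes bam and aly were at 0 while dj had 0, 3 and 0 counts and topi 41, 20 and 19, and the Malpighian tubule genes Uro and salt were at 0 while NaPi-T had 7, 7 and 3 counts and Irk2 1227, 992 and 807. The summed neuron markers elav, nSyb, brp and Syt1 had 3578, 3082 and 3776 CPM after TMM scaling (edgeR's correction for library composition), the lowest value being that of replicate 2. The sum of the matched fat body markers Yp1, Lsp2 and apolpp was highest there, at 16750 against 12230 and 13260 CPM. By gene, the yolk protein gene Yp1 had 7509, 11840 and 8765 CPM, apolpp 4570, 4786 and 4459, and Lsp2 153, 127 and 31.3. The sexes in each library were not given, and their part in the level of Yp1 was not tested.

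Every receptor was found in the head. The minimum for detection was a sum of 10 counts, which 38 of 38 passed, against 69.3% of all protein-coding genes in the table. A minimum of 10 counts in every library was passed by 35 of 38, against 63.5%, and missed by RYa-R, CapaR and PK2-R2. Together the receptors took 5141, 4730 and 4115 counts, which is 0.0617%, 0.0644% and 0.0653% of the libraries. The Wilson 95% intervals of these shares, which cover counting error only, were 0.0600% to 0.0634%, 0.0626% to 0.0662% and 0.0634% to 0.0674%, and each overlapped both others. The sum was 638 CPM ± 18.8 (SD, n = 3).

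As mRNAs the receptors were scarce. To compare genes, CPM was divided by the length of all annotated exons in kilobases. The median receptor had 2.95 CPM per kilobase, and the median of the 9479 detected protein-coding genes had 12.8. Only AkhR and Pdfr exceeded that median, against 6 receptors that exceeded the median CPM (28.3) without division by length, and the receptors lay between the 3.45th and the 66.1th percentile of those genes. The highest receptor was 42.8 times the lowest per kilobase. AkhR, Pdfr, SPR, Proc-R and Dh31-R together made up 39.2% of the summed level per kilobase, and 13 receptors had less than 0.1 of the level of AkhR.

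AkhR (FBgn0025595, chromosome 2L, 6711286 to 6716186, minus strand) encodes the receptor of adipokinetic hormone, which mobilises stored fat and sugar. It had 475, 553 and 419 counts in replicates 1, 2 and 3, or 57.0, 75.2 and 66.5 CPM, and it led the order with 20.8 CPM per kilobase ± 2.87 (SD, n = 3). The Wilson 95% intervals of replicate 1 (52.1 to 62.4 CPM) and replicate 2 (69.2 to 81.8 CPM) were apart, and replicate 3 (60.4 to 73.2) overlapped both.

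Pdfr (FBgn0260753, chromosome X, 2552206 to 2578640, plus strand) encodes the receptor through which the clock neuropeptide PDF reaches other clock cells. It had 615, 690 and 488 counts, the most reads of any receptor, and 17.5 CPM per kilobase ± 2.29 (SD, n = 3). Its range overlapped that of AkhR, which was the higher in each library, and lay above that of every other receptor. With the longest annotated transcript as the length, Pdfr had 24.5 CPM per kilobase and AkhR 23.8, so the order of these 2 genes depends on the length used.

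SPR and Proc-R came next. SPR (FBgn0029768, chromosome X, 5446656 to 5494012, plus strand) is the receptor of the male seminal sex peptide and of the myoinhibitory peptides, and it had 379, 312 and 311 counts and 12.3 CPM per kilobase ± 0.930 (SD, n = 3). Proc-R (FBgn0029723, chromosome X, 4707916 to 4729487, plus strand) binds proctolin, a peptide that strengthens muscle contraction, and it had 407, 304 and 264 counts and 11.7 CPM per kilobase ± 1.10. Their ranges overlapped. Dh31-R (FBgn0052843), the receptor of a calcitonin-like diuretic hormone that also acts in temperature preference and sleep, was the steadiest of the abundant receptors, with 275, 234 and 207 counts and 9.92 CPM per kilobase ± 0.193 (SD, n = 3), below every library of Proc-R and above every library of the next gene. Its TMM-scaled SD was 4.13% of the mean, below the 6.5% that counting error alone would give.

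**Figure D1:**
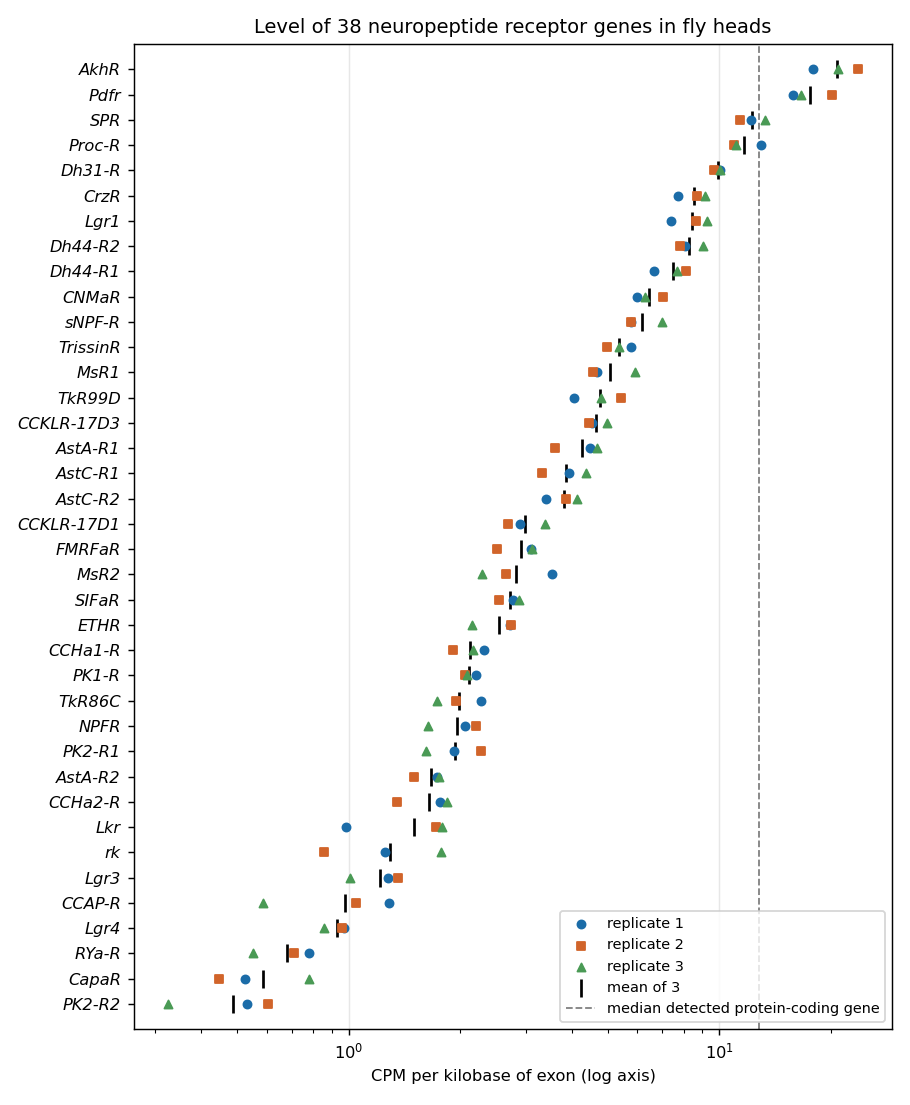
Level of each of the 38 receptor genes in CPM per kilobase of exon (log axis), from the highest to the lowest mean; points are the 3 libraries, the bar is their mean and the dashed line is the median detected protein-coding gene (12.8). Only AkhR and Pdfr have a mean to the right of the line, and most neighbours overlap.

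Below them the levels fell gradually. Of the 37 neighbouring steps in the order, 32 joined genes whose 3-library ranges overlapped. The 5 steps without overlap lay between Pdfr and SPR, Proc-R and Dh31-R, Dh31-R and CrzR, AstC-R2 and CCKLR-17D1, and Lgr4 and RYa-R. As a ratio within each library, a comparison added after seeing the data, 8 steps had all 3 libraries on 1 side and a mean beyond its SD. These were the same 5 and AkhR over Pdfr (log2 0.25 ± 0.08), Dh44-R1 over CNMaR (0.22 ± 0.07) and AstA-R1 over AstC-R1 (0.14 ± 0.05). The other 29 neighbours met neither rule in full. Of these, sNPF-R over TrissinR had a mean beyond its SD (0.197 ± 0.192) but libraries on both sides of 0. CCKLR-17D3 over AstA-R1 had all 3 libraries on 1 side but a mean within its SD (0.139 ± 0.151). The order was nonetheless shared, with a Spearman rho across the 38 genes of 0.966 to 0.981 between pairs of libraries. This rho is a description across genes, which are not independent replicates and share their exon lengths between libraries.

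The receptors of feeding, growth and energy stores spanned the widest range. After AkhR came sNPF-R (228, 201 and 209 counts, 6.17 CPM per kilobase ± 0.708), the receptor of short neuropeptide F, which promotes feeding. CCKLR-17D3 (4.65) and CCKLR-17D1 (2.99), the receptors of the satiety peptide drosulfakinin, and AstA-R1 (4.25), AstC-R1 (3.87) and AstC-R2 (3.80), which bind allatostatins A and C, lay in the middle of the order. NPFR, the receptor of the neuropeptide Y relative NPF, had 55, 52 and 33 counts and 1.96 CPM per kilobase ± 0.297 (SD, n = 3). AstA-R2 (1.66), CCHa2-R (1.65), the receptor of a nutrient-dependent peptide that acts on insulin-producing cells, and RYa-R (0.681), which had 15, 12 and 8 counts (Wilson 95% interval 0.643 to 2.51 CPM in replicate 3), were lower.

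The water and ion balance group, in which the pyrokinin receptors and Lgr4 were also placed, held high and very low members. CapaR, whose best known site is the Malpighian tubule, an organ of the trunk, had 8, 6 and 9 counts and 0.585 CPM per kilobase ± 0.175 (SD, n = 3). The Wilson 95% interval of its level was 0.486 to 1.90 CPM in replicate 1 and 0.752 to 2.72 CPM in replicate 3. PK2-R2, a receptor of the hugin pyrokinin, was the lowest per kilobase, with 13, 13 and 6 counts (0.436 to 2.08 CPM in replicate 3). By contrast Dh44-R2 (221, 188 and 186 counts, 8.30 CPM per kilobase ± 0.629) and Dh44-R1 (137, 148 and 120 counts, 7.49 ± 0.768), which bind a diuretic hormone related to corticotropin-releasing factor, stood near the top. Lgr1, the receptor of a thyrostimulin-like glycoprotein hormone, had 8.44 CPM per kilobase ± 0.944. PK1-R (2.11), PK2-R1 (1.94), Lgr4 (0.927) and the leucokinin receptor Lkr, with 24, 37 and 33 counts, were lower.

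Receptors tied to the clock, sleep and arousal held 30.5% of all receptor CPM, most of it in Pdfr and in Proc-R, which was placed in this group. Proc-R gave 44.0 of the 194 CPM of the group. Since its peptide also acts on muscle, the share depends on that placement. CNMaR, the receptor of CNMamide, had 6.44 CPM per kilobase ± 0.544, and TrissinR, the receptor of the cysteine-rich peptide trissin, had 5.37 ± 0.399 (SD, n = 3). FMRFaR (2.91), SIFaR (2.73) and CCHa1-R (2.13), through which the peptide CCHamide-1 acts on clock neurons, followed. SIFaR and PK1-R were among the steadiest of the lower genes, with an SD of 0.168 and 0.0738 CPM per kilobase.

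Most receptors that guide moulting and growth in the young fly were near the bottom. CrzR, the corazonin receptor, which acts in stress and metabolism in the adult, was the exception with 209, 207 and 186 counts and 8.52 CPM per kilobase ± 0.703 (SD, n = 3). ETHR, the ecdysis-triggering hormone receptor, had 102, 91 and 61 counts and 2.54 CPM per kilobase ± 0.337. The bursicon receptor rk (1.29), Lgr3 (1.21), the receptor of the growth-coordinating peptide Ilp8, and CCAP-R (0.973), the receptor of crustacean cardioactive peptide, closed the group. Of the muscle and modulation group, the myosuppressin receptors MsR1 (5.05) and MsR2 (2.83) and the tachykinin receptor TkR99D (4.76) lay above the natalisin receptor TkR86C (1.98).

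By structure, all 4 class B (secretin-like) receptors were among the 9 highest genes. Pdfr, Dh31-R, Dh44-R2 and Dh44-R1 had a median of 9.11 CPM per kilobase and took 25.1% of receptor CPM. The 30 class A (rhodopsin-like) receptors had a median of 2.87, from 0.487 for PK2-R2 to 20.8 for AkhR. Among the 4 leucine-rich repeat receptors, Lgr1 stood at 8.44, and rk, Lgr3 and Lgr4 lay between 0.927 and 1.29. These families were not tested against each other, since genes are not replicates.

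The genes themselves were long. The median receptor spanned 17378 bp, against 2930 bp for detected protein-coding genes, while its exons added up to 3187 bp against 2134 bp. AstA-R1 covered 92189 bp of chromosome X for a protein of 394 residues, and RYa-R covered 60956 bp of 3R with 9 whole genes of the table inside its span. The encoded proteins had 357 residues (AstA-R2) to 1360 residues (rk). Of the 38 genes, 13 lay on 3R, 10 on 3L, 7 on X, 5 on 2R and 3 on 2L. In 6 of them, exons overlapped those of another counted gene, always on the opposite strand. The strand setting of the counting was not given in the sources used here, so reads of such partners cannot be told apart with certainty. The overlap covered 29.7% of the exon bases of Lgr3 (with lncRNA:CR45225, 4, 1 and 1 counts), 29.2% of Lgr4 (with CG12096, 215, 205 and 145 counts) and 26.8% of SPR (with frma, 476, 471 and 339 counts). For Dh44-R2 it covered 16.4% with fdl (696, 693 and 592 counts) and 16.8% with CG34234, and for rk 9.8% with NimC2. RYa-R shared 28 bases with Nep5. Lgr4 itself had only 24, 21 and 16 counts, fewer in each library than its partner.

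Several receptors come as related pairs, 6 of which share a ligand, and the ratio within each library removes the library's scaling. The 8 pairs were compared per kilobase. PK2-R1 was higher than PK2-R2 by a log2 ratio of 1.97 ± 0.22 (3.92-fold; SD, n = 3), although the genes lie 4163 bp apart on 3R on opposite strands. AstA-R1 was higher than AstA-R2 by 1.33 ± 0.08, with 138, 98 and 109 counts against 34, 26 and 26. TkR86C was lower than TkR99D, with a log2 ratio of -1.26 ± 0.37. MsR1 was higher than MsR2 by 0.84 ± 0.48, but the ratio ran from 0.40 in replicate 1 to 1.36 in replicate 3, with 86 and 42 counts of MsR2 beside 138 and 132 counts of MsR1. CCKLR-17D1 was lower than CCKLR-17D3 (-0.64 ± 0.08), and CCHa1-R was higher than CCHa2-R (0.38 ± 0.13).

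In these 6 pairs, all 3 libraries lay on 1 side and the mean exceeded its SD. The other pairs did not differ beyond their spread per kilobase. AstC-R1 over AstC-R2 gave 0.023 ± 0.22 and Dh44-R1 over Dh44-R2 gave -0.15 ± 0.18, with libraries on both sides of 0. The two-sided exact sign-flip permutation test gave p = 0.25 for each of the 6 pairs (0.333 after Benjamini-Hochberg adjustment over the 8 pairs), and 0.25 is the smallest p that 3 libraries allow. For AstC-R1 and AstC-R2 the exact p was 1 (1 adjusted), and for Dh44-R1 and Dh44-R2 it was 0.5 (0.571 adjusted). These results depend on the division by length. Without it, the ratio was -0.34 ± 0.22 for AstC-R1 over AstC-R2 and -0.55 ± 0.18 for Dh44-R1 over Dh44-R2, both beyond the SD. That of CCKLR-17D1 over CCKLR-17D3 shrank to -0.13 ± 0.08. How far reads can be shared between the genes of a pair was not measured here.

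**Figure D2:**
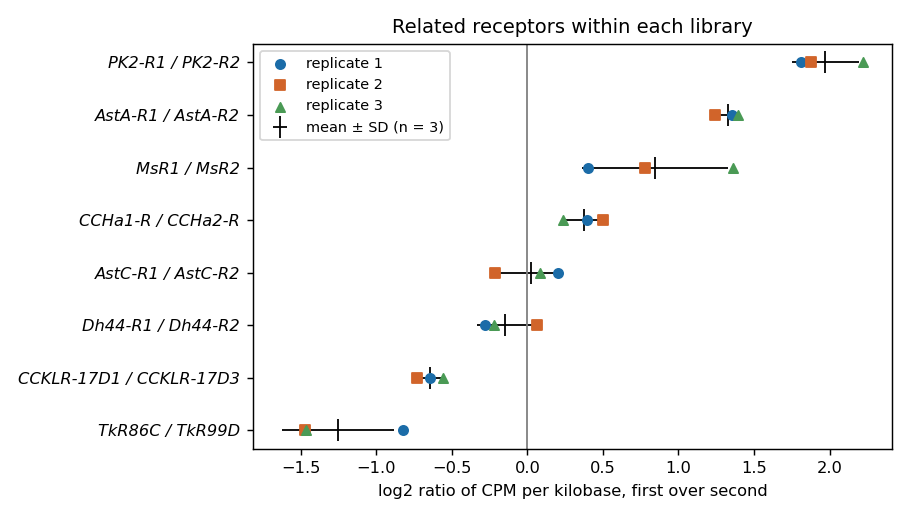
Log2 ratio of CPM per kilobase within each library for 8 pairs of related receptors, with the mean and SD (n = 3); 0 means equal levels. In 6 pairs all libraries lie on 1 side of 0, and in AstC-R1 / AstC-R2 and Dh44-R1 / Dh44-R2 they lie on both.

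The peptide precursors were set beside their receptors. Of 33 precursor genes, 28 were detected, and with them 35 of 40 precursor and receptor pairs could be compared. Summed per kilobase, precursors had 808 CPM ± 18.4 and receptors 184 CPM ± 5.47 (SD, n = 3), a 4.38-fold difference. The summed CPM differed by less, with 954 against 638 CPM, since precursor mRNAs are short. Per kilobase, the precursor was higher than its receptor in all 3 libraries in 29 of 35 pairs, and in 14 it was higher by over 10-fold (4 without division by length). The median log2 ratio was 2.18. Without division by length the precursor was higher in the mean in 22 pairs, against 31 with it.

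The largest gap belonged to CapaR. Its precursor gene Capa had 304, 249 and 226 counts, a log2 ratio of 6.40 ± 0.37 over CapaR (84.1-fold; SD, n = 3), which became 5.0 without division by length, and 4.58 ± 0.03 over PK1-R, the receptor of the pyrokinin that is cut from the same precursor. Hug stood 5.94 ± 0.47 above PK2-R2 and 3.97 ± 0.25 above PK2-R1. CCHa2 (740, 837 and 514 counts) stood 5.28 ± 0.49 above CCHa2-R. Ms, the myosuppressin gene, stood 4.86 ± 0.23 above MsR2 and 4.01 ± 0.30 above MsR1, and NPF 4.11 ± 0.06 above NPFR.

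For the abundant receptors the gap was smaller, in part by construction, since the receptor level is the divisor of the ratio. Pdf exceeded Pdfr by 1.91 ± 0.22, Dh31 exceeded Dh31-R by 2.17 ± 0.08, Proc exceeded Proc-R by 1.33 ± 0.24 and Mip exceeded SPR by 1.15 ± 0.10 (log2, SD, n = 3). Without division by length these ratios became -0.87, 0.82, 0.39 and -0.27, so that Pdf and Mip turned direction. Across the 34 receptors with a detected precursor, the level of the higher precursor and that of the receptor were hardly related, with a Spearman rho of 0.0642 and a Pearson r on the log2 scale of 0.113. These values describe genes that share libraries and, in several cases, a precursor.

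In 4 pairs the receptor was the higher mRNA in all 3 libraries. CNMa was below CNMaR (-1.27 ± 0.16), Gpa2 was below Lgr1 (-1.63 ± 0.22), ETH was below ETHR (-1.72 ± 0.86, on 5, 2 and 5 counts of ETH) and Akh was below AkhR. Gpb5, the other subunit of the Lgr1 ligand, did not differ from its receptor beyond the spread per kilobase (0.032 ± 0.40), nor did CCAP from CCAP-R (0.0077 ± 0.16), but without division by length both were lower than the receptor (-2.04 and -1.25). The receptors rk, Lgr3, Lgr4 and RYa-R had precursors that were not detected. RYa and Pburs had 0 counts in every library, which allows up to 0.36 to 0.476 CPM (3 counts) per library, Burs and Ilp7 had 1 count in all, and Ilp8 had 2. These 5 precursors were not detectable at this depth.

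**Figure D3:**
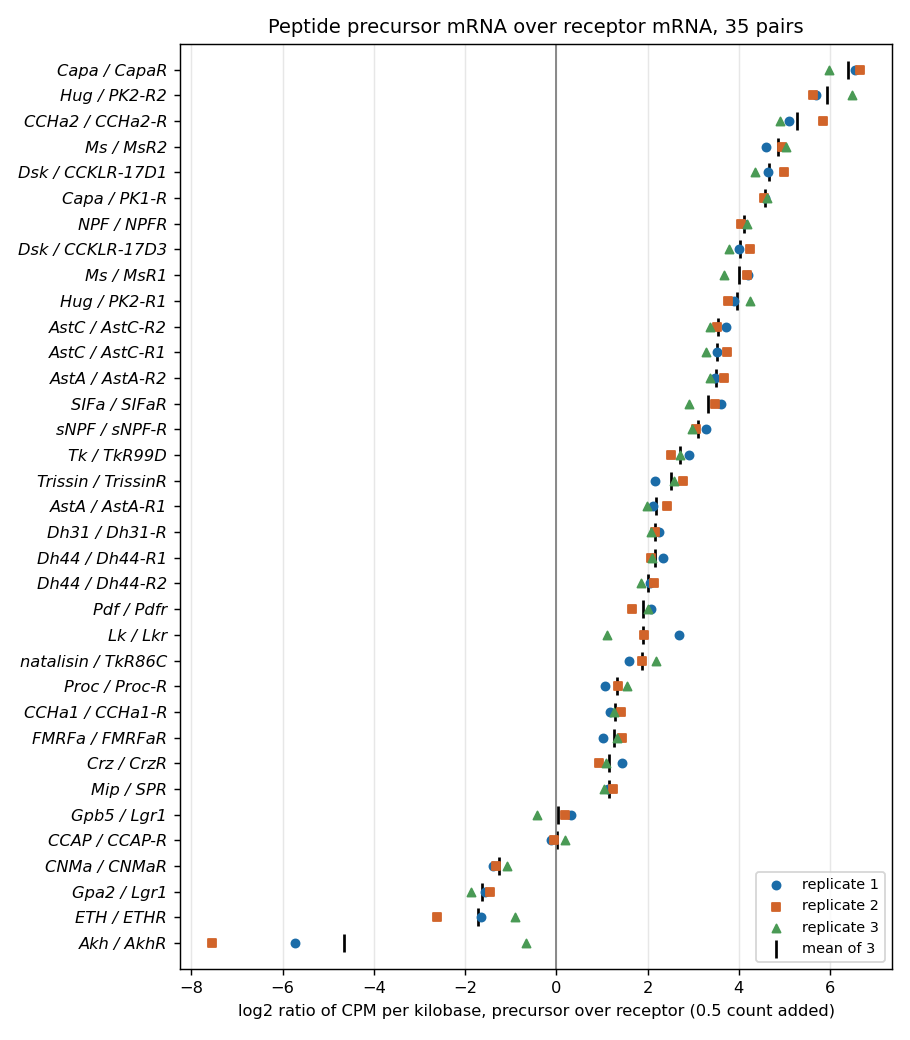
Log2 ratio of precursor over receptor mRNA in CPM per kilobase for the 35 pairs with a detected precursor, one point per library and a bar for the mean of 3; 0 means equal levels. Most pairs lie right of 0, up to 6.40 for Capa over CapaR, and Akh over AkhR is the pair whose libraries are farthest apart.

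Akh, the adipokinetic hormone gene, was the pair partner that differed most between libraries. It had 1 count in replicate 1, 0 in replicate 2 and 44 in replicate 3, or 0.120, 0 and 6.99 CPM. The Wilson 95% interval was 0.0212 to 0.680 CPM in replicate 1 and 5.20 to 9.38 in replicate 3, and 0 counts in replicate 2 allow up to 0.408 CPM. AkhR differed far less, with 17.9, 23.6 and 20.9 CPM per kilobase. Akh is made in the corpora cardiaca, an endocrine gland near the neck. It failed the filter on low counts of edgeR (filterByExpr), and in the fit with all genes of at least 1 count the spread of its replicates exceeded the value fitted for its abundance (edgeR adjusted p 8.35e-05). Among the cell type markers, the flight muscle actin Act88F and the fat body gene Lsp2 also set replicate 3 apart. At an adjusted p under 0.05, the main edgeR fit called 29 of 9049 genes. The fit with all genes of at least 1 count called 118. Act88F was higher there (3.17, 3.05 and 18.6 TMM-scaled CPM, edgeR adjusted p 0.0375). Lsp2 was lower there (153, 127 and 31.3 TMM-scaled CPM, edgeR adjusted p 0.0096). The flight muscle gene fln had 2, 2 and 6 counts and was not tested. The summed muscle list was not highest in replicate 3 (5946, 4551 and 4847 CPM). Neither were its members Mhc (4067, 3175 and 3550 CPM) and Mlc2 (1875, 1372 and 1278 CPM). The part of other tissue in the Akh reads was not tested.

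No receptor was called as varying between libraries more than genes of its abundance do. The edgeR fit asked, for each gene, whether the spread of its replicates exceeded the spread fitted for its abundance, and 35 of 38 receptors passed its filter. RYa-R, CapaR and PK2-R2 did not. At an adjusted p under 0.05, 0 of 35 receptors were called, against 0.32% of 9049 genes, and at an unadjusted p under 0.05 there was 1, rk, against 4.64%. DESeq2 marked 0 of 38 receptors as dispersion outliers, against 0.875% of genes. The lowest edgeR adjusted p of a receptor was 0.992. None of the 29 tested G protein transducers, the 17 tested peptide processing and release genes or the 24 tested precursors was called either, with 0 at an unadjusted p under 0.05 in each list (edgeR).

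The spread was set beside the spread that counting error alone would give. The coefficient of variation over the libraries had a median of 12.6%, and counting error alone gave a median of 11.04%. Of the 35 tested receptors, 13 varied by less than the counting value, against 36.7% of all tested genes, a share near the background. Of the 35, AkhR, Pdfr and rk varied by more than 2 times their counting value, against 26.1% of all tested genes. The ratio of the highest to the lowest TMM-scaled library had a median of 1.27 among tested receptors and 1.18 among all tested genes, and it exceeded 1.5 in 4 of the 35, MsR2 (86, 57 and 42 counts), Lkr, rk and CCAP-R, against 9.58% of all tested genes. It also exceeded 1.5 in CapaR and PK2-R2, which were not tested. The backgrounds in these comparisons were not matched for abundance. The median receptor had 11.3 CPM, against 28.3 for detected protein-coding genes, and counting error is larger at fewer counts.

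**Figure D4:**
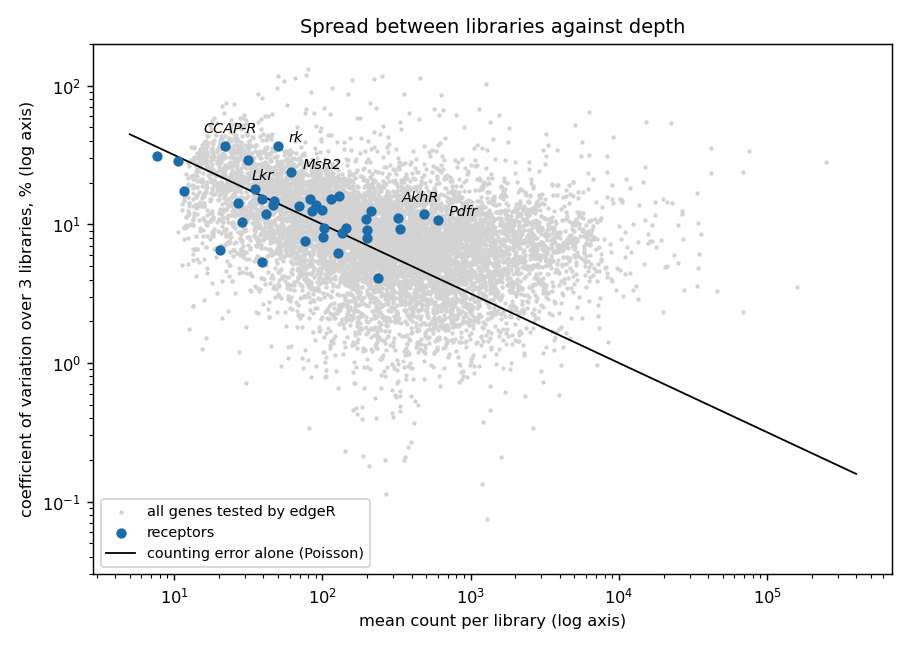
Coefficient of variation over the 3 libraries against the mean count per library (both log axes) for the receptors (blue) and all genes tested by edgeR (grey); the line is the value that counting error alone would give. AkhR, Pdfr and rk lie more than 2 times above the line, and most other receptors lie close to it.

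rk, the receptor of the cuticle-hardening hormone bursicon, had 56, 34 and 60 counts, or 6.72, 4.63 and 9.53 CPM. The Wilson 95% intervals of replicate 2 (3.31 to 6.46) and replicate 3 (7.40 to 12.3) were apart. Its edgeR adjusted p was 0.992 (0.0401 unadjusted), so the call failed the correction. The overlapping gene NimC2, a haemocyte gene, had 123, 99 and 78 counts, with its lowest TMM-scaled level in replicate 3, while the 4 summed haemocyte markers had 310, 355 and 439 CPM and were highest there. The part of haemocytes in the level of rk was not tested. CCAP-R had 32, 23 and 11 counts and was lowest in replicate 3, Lkr had 24, 37 and 33 and was lowest in replicate 1, and MsR2 was lowest in replicate 3. Without replicate 2 these 3 genes had an unadjusted p under 0.05, with edgeR adjusted p-values of 0.569 for CCAP-R, 0.736 for Lkr and 0.763 for MsR2.

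AkhR and Pdfr, the most abundant receptors, had their libraries in the same order as Dh44-R1, CNMaR and TkR99D. All were highest in replicate 2 and lowest in replicate 1. The share of all tested genes with this order was not counted, so the order is not read as particular to these receptors. The TMM-scaled values were 57.9, 73.3 and 67.2 CPM for AkhR and 74.9, 91.5 and 78.3 CPM for Pdfr. Of the 35 tested receptors, 8 were highest in replicate 2, against 35.8% of all tested genes. The edgeR adjusted p was 0.992 for both AkhR and Pdfr, and without replicate 3 that of AkhR was 0.882 (0.0440 unadjusted). The fat body marker Yp1 went the same way, with 7509, 11840 and 8765 CPM, whereas Lsp2 was low in replicate 3 and apolpp had 4570, 4786 and 4459 CPM. The part of fat body in the level of AkhR, and that of sex in the level of Yp1, was not tested.

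Most other receptors were low in replicate 2. Of the 35 tested, 18 were lowest there, against 36.0% of all tested genes, and 17 were highest in replicate 3, against 33.6%. Their median log2 deviation from the gene mean was 0.038, -0.076 and 0.056 in the 3 libraries, against -0.0015, -0.0019 and -0.0055 over all tested genes. Scaled to library totals 18 were lowest in replicate 2, against 26.1% of genes, and with DESeq2 size factors 18, against 36.8%. The neuron markers were also lowest in replicate 2. Scaling to their sum raises every gene in replicate 2 by construction, and 5 of 35 receptors and 5.24% of genes were then lowest there. Among the 13 receptors with at least 100 counts in every library, 7 were lowest in replicate 2, against 40.5% of such genes. The part of neuron content in these deviations was not tested.

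**Figure D5:**
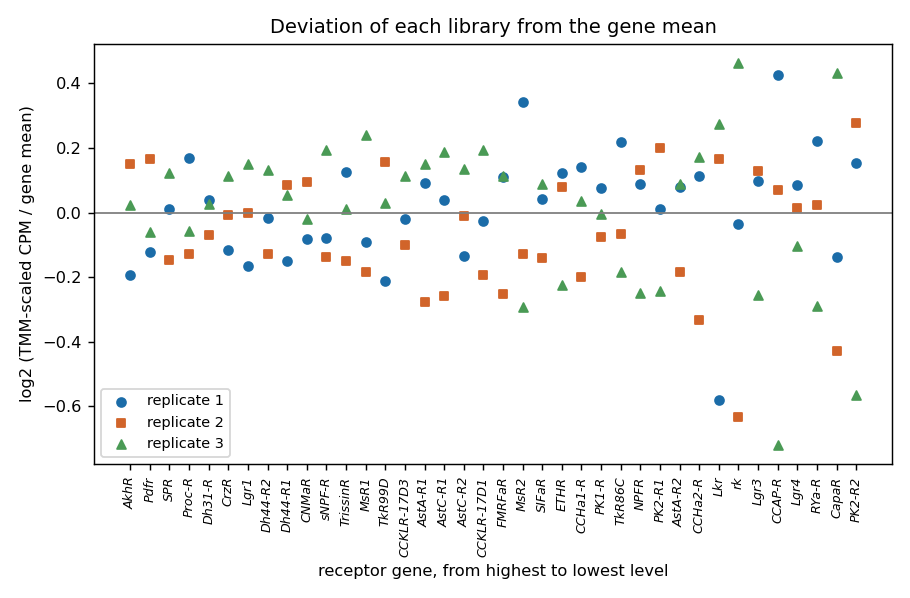
Log2 deviation of each library from the mean of the gene (TMM-scaled CPM) for the 38 receptors, ordered from the highest to the lowest level. Replicate 2 (squares) is the lowest point for many receptors but the highest for some, among them AkhR and Pdfr, and the points spread more toward the low-count genes on the right.

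The other genes of the pathway had higher median levels than the receptors. The 29 G protein transducer genes on the list, all of them detected, had a median level of 35.5 CPM per kilobase, and 28 exceeded the median receptor. Gbeta76C, the eye-specific beta subunit of phototransduction, was the highest with 654 CPM per kilobase ± 20.1, followed by Ggamma1 (399 ± 12.9) and the phospholipase C gene norpA (247, with 17058, 13742 and 14078 counts). The alpha subunit Galphaf was the lowest, with 18, 23 and 22 counts and 1.60 ± 0.377. The 17 matched processing and release genes, all of them detected, had a median level of 26.7 CPM per kilobase and were led by 7B2, a helper of the prohormone convertase (259 ± 1.64), the vesicle membrane gene IA-2 (232 ± 23.0) and the amidating lyase Pal2 (143 ± 0.853), with the neprilysin gene Nep5 the lowest (0.572 ± 0.225). Detected precursors had a median of 28.6 CPM per kilobase. The transducers serve every G protein-coupled receptor of the head, rhodopsins included, so their levels are not those of peptide signalling alone.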

How the data were processed

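Polyadenylated RNA of adult heads was sequenced in 3 libraries. The authors deposited raw read counts per FlyBase gene, 1 column per library, with 0 columns left unused. The submitters' processing notes name STAR 2.7.4a, featureCounts and the dm6 build. The strand and multi-mapping settings are not given in the sources used here. Gene names, exon unions and coordinates came from the Ensembl release 115 annotation of the same assembly, a later release than the one the study used. Phm, Pal1, FASN1 and vas were on the lists but not matched to the table.

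CPM was computed over all counts. Variability between libraries was fitted to the deposited counts with edgeR 4.0.16 (R 4.3.3): TMM, filterByExpr, an intercept-only design, and each gene's quasi-dispersion set against its fitted prior (upper tail of F), with Benjamini-Hochberg adjustment over all 9049 genes. This was tested on simulated data. DESeq2 1.42.0 dispersion outliers were an alternative. Each ratio was taken on the log2 scale within a library after adding 0.5 to both counts. All members were named, as were the precursors of the receptors described, and of the other lists the 3 highest and the lowest detected genes. Members and lists were chosen with earlier results of these data known.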

Additional observations from a re-analysis of the deposited data

How the results depend on the processing

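Of 546 alternative values of 89 results, 495 stayed within the spread between replicates, within 1.5 times for counts of genes, or on their side of 0. Part of these were fixed by construction. Leaving out 1 of 3 libraries cannot move a mean level or a mean precursor ratio by as much as 1 SD. TMM and DESeq2 scaling left the level of each of the 38 receptors within 1 SD. No paired analysis was possible because the series has 1 group. Without mitochondrial genes in the total, the receptor sum became 678 CPM by construction. Scaled to the neuron markers, an alternative chosen after seeing the data, 5 receptors were lowest in replicate 2 instead of 18, and the share of all tested genes went from 36.0% to 5.24%, by construction. With at least 100 counts in every library it was 7, of fewer genes. The median log2 ratio of precursor to receptor became 1.20 without division by length and lay between 2.20 and 2.30 when 1 library was left out. The log2 ratio of AstC-R1 to AstC-R2 became -0.34 without division by length and lay between -0.067 and 0.14 with 1 library left out. Without division by length the precursor also fell below its receptor for Trissin (-0.21), Pdf (-0.87), Lk (-0.32), CCHa1 (-0.34), FMRFa (-0.31), Crz (-1.15), Mip (-0.27), Gpb5 (-2.04) and CCAP (-1.25), since receptor mRNAs are longer. Leaving out any 1 library called 0 receptors (edgeR), with 1 to 3 at an unadjusted p under 0.05. Depth limits RYa-R, CapaR and PK2-R2, which had under 10 counts in at least 1 library.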
